A study of Mus musculus and Homo sapiens with 15 samples.

Results

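The enzyme-only exonic clusters of mouse brain are stretches of exon in which cytosines read as uracils in sections that received the editing enzyme without an antibody to guide it. INSCRIBE places a purified protein, in which the cytidine deaminase APOBEC1 is joined to a nanobody against rabbit IgG, on fixed tissue, where a rabbit antibody against an RNA-binding protein, here RBFOX2, brings it to the RNAs that protein holds. The members were the rows of the authors' cleaned enzyme-only list whose label named an exon and that shared no base on their strand with the RBFOX2-INSCRIBE list before cleaning. This gave 3125 of the 3257 exonic rows, out of 4401 rows in the whole list. The other 132 exonic rows overlapped an RBFOX2-INSCRIBE cluster.

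Sections came from at most 2 female C57BL/6J wildtype mice, 2 months old by the study's methods, and were fixed in PFA by the labels. The RBFOX2-INSCRIBE sections received anti-RBFOX2 antibody and enzyme, the enzyme-only sections received enzyme without that antibody, and the buffer-only sections received neither. Each of the 9 libraries, 3 per group, was made from 1 coronal section of 20 µm of whole brain, and which mouse gave which section is not labelled. The study calls these replicates technical, so the p-values below measure the spread between sections.

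APOBEC1 removes the amino group of cytosine and leaves uracil, which sequencing reads as T. In its natural role it edits the transcript of apolipoprotein B in the gut, and it works best where an A or U stands just 5′ of the target C. An enzyme that is free in the tissue can therefore edit any exposed transcript that carries such a C. RBFOX2 belongs to a family of splicing regulators that bind UGCAUG, mostly in introns and 3′UTRs.

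The sequences around the most edited cytosine are shown for 8 of the 12 member clusters with the most edited reads, because they show what the edited positions look like. Each runs 5′ to 3′ on the RNA strand, written as DNA from the RefSeq GRCm38.p6 genome, and the capitals mark the edited C and the base before it.
Snhg14: gcttccctggaagACatttcctcccagca
Map1b: ctcagtgatggccACggagccgagccgag
Tmem47: agagatgatatacACacagagaaacccta
Ntrk2: ttttaggtttttcTCttaacaatcccagc
Gm13340: gacacatgagcttACtttacatcagccac
Htr2c: acccgaacttcgtTCtcatcgggtccttc
Surf4: gggacgggagaaaACaatgatacacatat
Setd7: tccctcccctcccCCttcccttgctttcc
An A precedes the edited C in Snhg14, Map1b, Tmem47, Gm13340 and Surf4, a T (U in the RNA) in Ntrk2 and Htr2c, and a C in Setd7. In mm10 coordinates these windows are chr7:59388150-59388178 on the minus strand for Snhg14, chr13:99422933-99422961 minus for Map1b, chrX:81097223-81097251 plus for Tmem47 and chr13:58933646-58933674 plus for Ntrk2. The others are chr2:22588722-22588750 minus for Gm13340, chrX:147193850-147193878 plus for Htr2c, chr2:26920187-26920215 minus for Surf4 and chr3:51518485-51518513 minus for Setd7. The Htr2c window lies in coding sequence, Snhg14 and Gm13340 in exons without coding sequence, and the other 5 in 3′UTRs.

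Member clusters were small and shallow. Their median length was 45 nt, 2064 of them (66.0%) were exactly that long, and the longest had 240 nt. The listed depth, the authors' mean number of reads over the cluster, had a median of 42.5 with quartiles of 31.5 and 54.7, and ranged from 4.26 to 3223. Exonic clusters of the RBFOX2-INSCRIBE list outside the enzyme-only list were alike. Their median length was 45 nt, 64.5% were exactly that long, and their median depth was 40.9. Over the 3 enzyme-only libraries together a member held a median of 3 edited reads. There were 1866 members (59.7%) with 1 to 3 edited reads, 60 with at least 10, and 2 with more than 20, those of Snhg14 and Map1b.

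By the GENCODE annotation, 1576 members (50.4%, Wilson 95% interval 48.7 to 52.2) lay in a 3′UTR and 1247 (39.9%, 38.2 to 41.6) in coding sequence. A further 126 (4.03%, 3.40 to 4.78) lay in a 5′UTR and 168 (5.38%, 4.64 to 6.22) in an exon without coding sequence, and the remaining 8 met no exon of that annotation. In the 2608 exonic clusters of the RBFOX2-INSCRIBE list that were outside the enzyme-only list, coding sequence held a smaller share, 30.9% (29.1 to 32.7), and exons without coding sequence a larger one, 10.8% (9.68 to 12.1). These intervals cover counting error only, and clusters of 1 list hold no spread between sections, so the shares were not tested against each other. The members in 3′UTRs lay at a median of 0.448 of the way along a UTR with a median length of 3109 nt, with 22.1% in its first 20% and 15.6% in its last 20%. For the RBFOX2-INSCRIBE clusters in 3′UTRs the medians were similar, at 0.462 and 3163 nt.

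**Figure D1:**
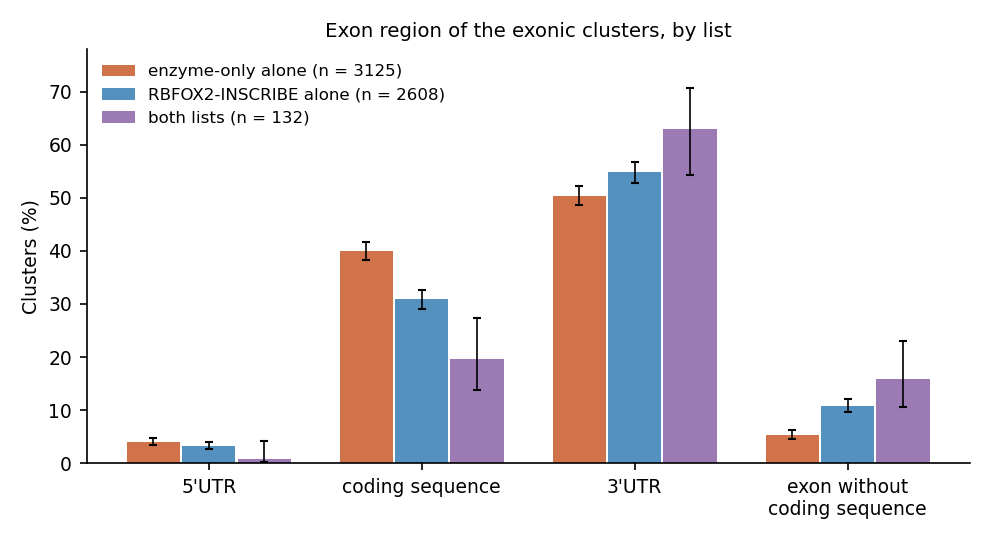
Share of exonic clusters (%, y axis) in each kind of exon (x axis) for the enzyme-only clusters alone, the RBFOX2-INSCRIBE clusters alone and the 132 in both lists, with Wilson 95% intervals as bars. Coding sequence holds 39.9% of the enzyme-only clusters, 30.9% of the RBFOX2-INSCRIBE clusters and 19.7% of those in both.

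The letters UGCAUG stood in 58 of the 3125 members (1.86%, Wilson 95% interval 1.44 to 2.39) on the RNA strand. The share was 5.83% (4.99 to 6.79) in the RBFOX2-INSCRIBE clusters outside the enzyme-only list, 6.82% (3.63 to 12.5) in the 132 shared clusters, and 1.86% (1.20 to 2.85) in the 1078 intronic enzyme-only clusters. With 50 nt added on each side, 160 members (5.12%) held it, against 12.1% of the RBFOX2-INSCRIBE clusters. Both lists were chosen by their edits, so these shares are a description without a test. Median GC content was 48.9% in the members and 46.7% in the RBFOX2-INSCRIBE clusters.

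The members were chosen from the edits of these libraries, so the following values have no test. A cluster called in the library itself overlapped 99.8%, 81.6% and 100.0% of the members in enzyme-only replicates 1 to 3. In the RBFOX2-INSCRIBE libraries the shares were 25.2%, 23.5% and 22.5%, and in the buffer-only libraries 18.6%, 19.8% and 17.9%. Clusters of all 3 enzyme-only libraries overlapped 2549 members, those of 2 overlapped 571, and 5 members met a cluster of 1 library.

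Although no member overlapped the RBFOX2-INSCRIBE confident list, 1695 of them overlapped a cluster called in at least 1 RBFOX2-INSCRIBE library. Of these, 1189 overlapped clusters of 1 such library, 481 of 2 and 25 of all 3. In the buffer-only libraries, which had no enzyme, 1102 members overlapped clusters of 1 library, 280 of 2 and 32 of all 3. Clusters of all 3 enzyme-only libraries and of none of the other 6 were found at 633 members (20.3%). The opposite list behaved alike: of the 2608 RBFOX2-INSCRIBE exonic clusters outside the enzyme-only list, 26.3%, 28.4% and 25.6% were overlapped by clusters of the 3 enzyme-only libraries.

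**Figure D2:**
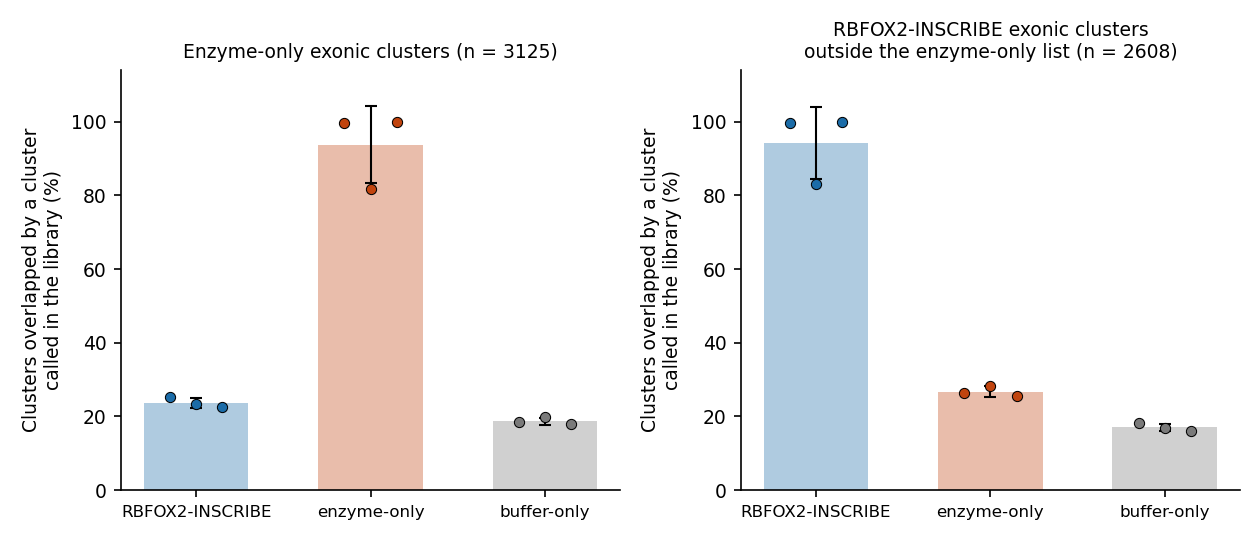
Share of clusters (%, y axis) overlapped by a cluster called in each library, with 1 point per library, the group mean as a bar and the SD as an error bar (n = 3). The enzyme-only exonic clusters (left) reach 81.6 to 100.0% in the enzyme-only libraries that defined them and 17.9 to 25.2% in the other 6, and the RBFOX2-INSCRIBE clusters (right) show the reverse.

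The edited reads in the members, counted at sites that passed the authors' filter on score and edited fraction, numbered 3231, 2875 and 5026 in the enzyme-only libraries. They numbered 925, 836 and 748 in the RBFOX2-INSCRIBE libraries and 561, 574 and 464 in the buffer-only libraries. Per 1000000 filtered edited reads of the library this was 13471 ± 4709 (SD, n = 3) for enzyme-only, 2575 ± 142 for RBFOX2-INSCRIBE and 2467 ± 368 for buffer-only. The 3 enzyme-only libraries lay above the other 6, and replicate 3 was the highest of them. Without it the ratio of enzyme-only to RBFOX2-INSCRIBE fell from 5.23 to 4.20, and that to buffer-only from 5.46 to 4.38. The lead of replicate 3 depended on the windows: in those listed, enzyme-only replicates 1 to 3 had 11723, 9886 and 18804 per 1000000. With 15 nt added on each side they had 17173, 13542 and 18894, and the cause was not tested. At least 1 filtered edit was found in 72.6%, 63.6% and 99.8% of the members in the enzyme-only libraries, and in 12.4 to 19.8% in the other 6.

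Cover at the filtered sites differed less than the edits. The mean number of reads over an edited site in the members was 46.4 ± 3.48 in the enzyme-only libraries, 53.9 ± 5.87 in RBFOX2-INSCRIBE and 48.5 ± 7.08 in buffer-only (SD, n = 3). The files list only sites with an edit, so cover at sites without one is not known. In the same genes outside all confident clusters, which the rule did not use, the mean cover per edited site was 27.9 ± 0.889 in enzyme-only libraries, against 26.6 ± 0.288 in RBFOX2-INSCRIBE (exact permutation test, two-sided, p = 0.1, n = 3) and 26.4 ± 0.898 in buffer-only (exact permutation p = 0.2, n = 3). With 3 libraries against 3, 0.1 is the smallest p this test can give. The first of these differences separated all 6 libraries and was 1.05-fold, but with every listed site the ratio was 0.995 (exact permutation p = 0.9, n = 3) and that against buffer-only 0.940 (p = 0.7). In the members, counting every listed site moved the ratio of cover from 0.860 to 0.580 against RBFOX2-INSCRIBE and from 0.956 to 0.539 against buffer-only.

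The base before the edited C is given as a description, because edits of the enzyme-only libraries chose the windows. Within the members, A or U preceded 63.6%, 66.0% and 65.6% of the filtered edited sites in the enzyme-only libraries. The shares were 66.7%, 64.8% and 67.7% in RBFOX2-INSCRIBE and 49.8%, 51.7% and 50.2% in buffer-only, where all C of the clusters had 48.8%. The groups with enzyme did not overlap the buffer-only group, and they overlapped each other. The means were 65.1 ± 1.27% for enzyme-only, 50.6 ± 0.987% for buffer-only and 66.4 ± 1.44% for RBFOX2-INSCRIBE (SD, n = 3).

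Much of the difference lay in A: an A preceded 34.8 ± 1.06% of the sites in enzyme-only, 34.9 ± 2.05% in RBFOX2-INSCRIBE and 23.6 ± 1.07% in buffer-only (SD, n = 3). For U the shares were 30.2 ± 0.329%, 31.5 ± 2.46% and 27.0 ± 0.107%.

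The context was more marked where the same C was edited in more than 1 enzyme-only library. Of the filtered sites in the members, 7618 were listed in 1 enzyme-only library, 874 in 2 and 75 in all 3, so most clusters recurred as windows and not as single bases. A or U preceded 61.6% of the first, 78.5% of the second and 80.0% of the third, with A alone at 61.3% of the last. Sites listed in buffer-only libraries and in no enzyme-only library had 47.3% (of 1023 sites). On the 3′ side, 77.0% of the 949 sites of 2 or 3 libraries were followed by A or U, against 62.3% of all C. From 2 to 10 nt away on either side the shares of A or U at the 949 sites were 55.4% and 55.1%, against 49.0% and 48.8% around all C. Of the 75 sites found in all 3 enzyme-only libraries, 28 were also listed in an RBFOX2-INSCRIBE library and 20 in a buffer-only library.

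**Figure D3:**
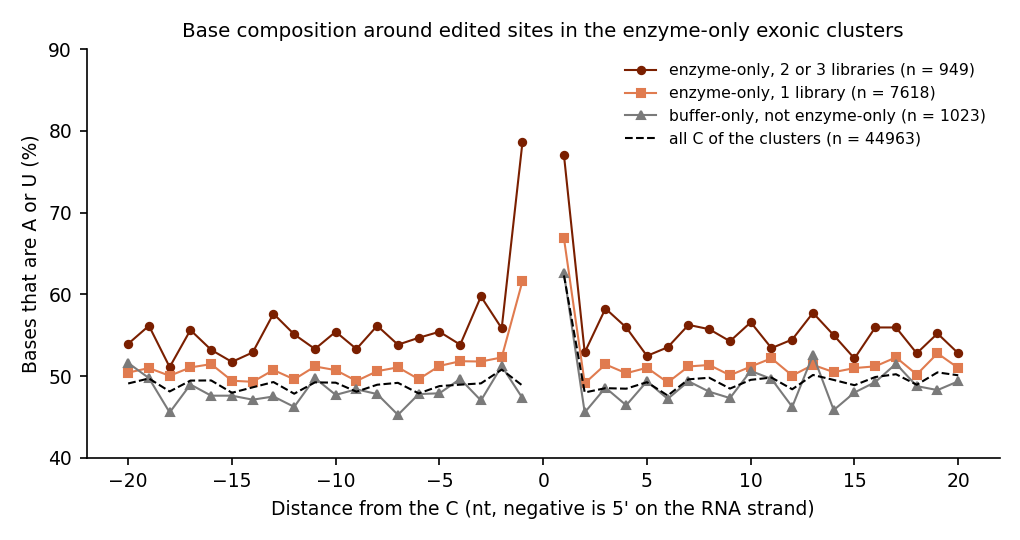
Share of bases that are A or U (%, y axis, from 40 to 90) by distance from the C in nt (x axis) for edited sites in the enzyme-only exonic clusters, by how many enzyme-only libraries list them, for buffer-only sites, and for all C of the clusters as a dashed line. The bases next to the C reach 78.6% and 77.0% at sites of 2 or 3 libraries, while the buffer-only sites (47.3% before the C) stay near the line for all C.

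Map1b, whose protein stabilises microtubules in growing axons, held the most filtered edited reads among the members with none in the other 6 libraries. Its cluster at chr13:99422932-99422976 (mm10, minus strand) held 16, 18 and 18 filtered edited reads in the enzyme-only libraries and none in the other 6. Counting every listed site, the cluster held 17, 19 and 20, against 9, 3 and 6 in RBFOX2-INSCRIBE and 10, 3 and 3 in buffer-only. At its most edited C, position 99422947, 16 of 744, 18 of 838 and 18 of 665 reads carried the edit, which is 2.15% (Wilson 95% interval 1.33 to 3.46), 2.15% (1.36 to 3.37) and 2.71% (1.72 to 4.24). The site was not free of edits elsewhere: before filtering, 6 of 858, 2 of 776 and 6 of 633 reads carried it in RBFOX2-INSCRIBE, and 1 of 1038 and 1 of 752 in 2 of the buffer-only libraries. These reads did not pass the filter, so no filtered edit is not the same as no edit. The enzyme-only shares lay above those of the other libraries in which the site was listed. Outside its clusters, Map1b had 58, 74 and 95 edited reads in enzyme-only and 73, 89 and 68 in RBFOX2-INSCRIBE, a log2 fold change of 0.15 (SE 0.18, adjusted p = 0.860 by edgeR's quasi-likelihood test).

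Snhg14, the long transcript that hosts small nucleolar RNAs of the Prader-Willi and Angelman region, held the member with the most edited reads and the greatest depth. At its leading C, position 59388164, the edited share was 1.17%, 1.11% and 1.40% in the enzyme-only libraries, with 3156, 3142 and 2789 covering reads. It was 1.11%, 1.18% and 0.883% in RBFOX2-INSCRIBE and 0.797%, 1.03% and 1.00% in buffer-only. The enzyme-only shares overlapped those of RBFOX2-INSCRIBE and lay above all 3 buffer-only shares, though the 95% intervals of the 9 libraries overlapped. After the score filter the site had no edited reads in RBFOX2-INSCRIBE replicate 3 and in buffer-only replicates 1 and 3. In Cops8, a subunit of the COP9 signalosome, the groups overlapped as well: its leading C carried 2.96%, 2.27% and 3.36% in the enzyme-only libraries and 1.27%, 3.17% and 1.80% in buffer-only, of 111 to 157 reads.

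**Figure D4:**
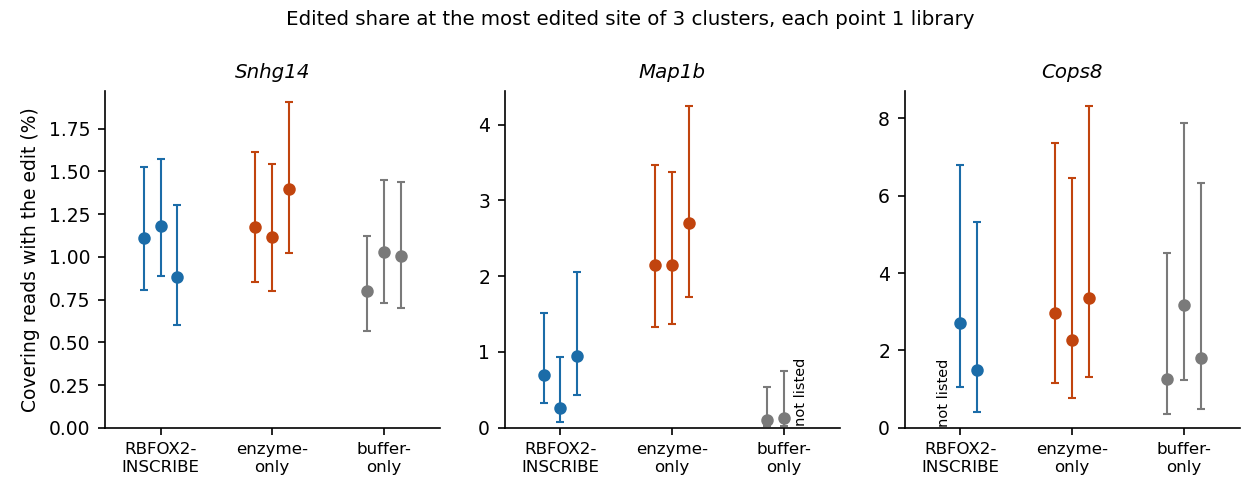
Share of covering reads with the edit (%, y axis, a scale of its own in each panel) at the most edited C of the Snhg14, Map1b and Cops8 clusters, 1 point per library with its Wilson 95% interval and every listed site used. Map1b is at 2.15 to 2.71% in the enzyme-only libraries and at most 0.948% elsewhere, whereas enzyme-only overlaps RBFOX2-INSCRIBE at Snhg14, where it lies above buffer-only, and overlaps both other groups at Cops8.

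In most of the other clusters with many edited reads, the reads were spread over several C and came mainly from 1 enzyme-only library. Htr2c encodes the serotonin 2C receptor, whose transcript is known for natural adenosine editing. Its cluster in coding sequence had 11, 3 and 3 filtered edited reads in the enzyme-only libraries, 1 in RBFOX2-INSCRIBE replicate 1 and none in the other 5. Counting every listed site, RBFOX2-INSCRIBE replicate 2 had 2. Surf4, which encodes a cargo receptor of the endoplasmic reticulum, had 10, 2 and 3. The 3′UTR cluster of 4931406P16Rik had 10, 1 and 3. In these 3 clusters replicate 1 gave most of the reads.

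Tmem47, a membrane protein of cell junctions, had 2, 4 and 12 edited reads in the enzyme-only libraries and 2 to 4 in RBFOX2-INSCRIBE. Gja1, the astrocyte gap junction protein connexin 43, had 1, 2 and 10, against 1 to 3 in RBFOX2-INSCRIBE and none in buffer-only after the filter. Counting every listed site, Gja1 had 5, 6 and 11 in enzyme-only, 5, 2 and 6 in RBFOX2-INSCRIBE and 6, 1 and 1 in buffer-only. Ntrk2, the receptor of brain-derived neurotrophic factor, had 6, 1 and 10, and RBFOX2-INSCRIBE replicates 1 and 2 had 6 and 5. In these 3 clusters replicate 3 was highest, and the enzyme-only and RBFOX2-INSCRIBE groups overlapped in all 3.

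Setd7, a lysine methyltransferase, had 0, 11 and 4 filtered edited reads in the enzyme-only libraries and none elsewhere, but counting every listed site RBFOX2-INSCRIBE had 5, 5 and 1 and buffer-only had 5, 0 and 5. Srgap3, a GTPase activator of axon guidance, had 5, 6 and 4, with 7, 0 and 6 in buffer-only and 2 in RBFOX2-INSCRIBE replicate 3, so the enzyme-only and buffer-only groups overlapped. Gm13340 had 4, 8 and 5 reads, 1 in RBFOX2-INSCRIBE replicate 1 and none in the other 5. It is annotated as an unprocessed pseudogene, at a listed depth of 9.43 reads, and reads that it shares with a near-identical copy could be placed at either.

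The 4 members with filtered edits in all 3 enzyme-only libraries, in none of the other 6, and with the most edited reads were those of Map1b, Ncam1, Hmbox1 and Ntng2. Ncam1, a neural cell adhesion molecule, had 2, 2 and 9 edited reads. Hmbox1, a homeobox transcription factor, had 3, 6 and 2, and Ntng2, which encodes netrin-G2, had 2, 6 and 3. Counting every listed site, Hmbox1 still had none in the other 6 libraries, while Ncam1 had 5, 0 and 5 in RBFOX2-INSCRIBE and 3, 1 and 1 in buffer-only, and Ntng2 had 2 in RBFOX2-INSCRIBE replicate 2 and 1 in buffer-only replicate 3. Such members, with filtered edits in all 3 enzyme-only libraries and none in the other 6, numbered 530 (17.0%), and 419 (13.4%) when every listed site counted.

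Just inside the rule, 23 members lay within 15 nt of an RBFOX2-INSCRIBE cluster without sharing a base. The 4 named here, in Mob4, Rgs5, Xpot and Slc16a7, lay directly beside one, with 5, 2, 6 and 4 edited reads in enzyme-only and 0, 0, 1 and 1 in RBFOX2-INSCRIBE. Just outside it, clusters of Ralgapa1, Exoc2, Ago2 and Gm49450/Tuba1b were left out for an overlap of 15 nt, with 2, 5, 2 and 5 edited reads in enzyme-only and 0, 2, 2 and 3 in RBFOX2-INSCRIBE. Of all members, 93 lay within 100 nt of an RBFOX2-INSCRIBE cluster and 437 within 1000 nt.

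The members fell in many genes. A single gene of the GENCODE annotation could be given to 3013 clusters, and these lay in 2354 genes, of which 1850 held 1 cluster, 396 held 2 and 108 held 3 or more. Protein-coding genes made up 2285 of them (97.1%), and 18 were pseudogenes. The remaining 112 clusters had several exonic genes in their label or none that matched.

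The most clusters lay in the 3′UTR of the transcription factor gene Zbtb20, whose 8 clusters are labelled with it and the microRNA Mir568 together. Those 8 held 7, 4 and 13 edited reads in the enzyme-only libraries and 0, 2 and 2 in RBFOX2-INSCRIBE, along a UTR of up to 23861 nt. Erbb4, the neuregulin receptor, followed with 7 clusters, all in its 3′UTR, and 7, 8 and 13 edited reads, against 3, 1 and 1 in RBFOX2-INSCRIBE and 0, 1 and 1 in buffer-only. In both genes the 3 enzyme-only libraries lay above the other 6.

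Med13, of the Mediator kinase module, also had 7 clusters, 3 in its 3′UTR and 4 in coding sequence. Lifr, the receptor of leukaemia inhibitory factor, Tenm1, a teneurin of synaptic adhesion, and Tet3, which oxidises methylcytosine, had 6 each. Tenm1 had 4 of its 6 clusters in coding sequence and Lifr 4 of 6 in the 3′UTR. The edited reads in these clusters summed to 25 in Med13, 23 in Lifr, 21 in Tenm1 and 20 in Tet3 over the 3 enzyme-only libraries, so a cluster held a few reads here as elsewhere. Longer exons offer more windows, and the number of clusters per gene was not corrected for length.

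Genes with more edited reads held members more often. Of the 6237 genes with enough edited reads outside all confident clusters to be tested, 1856 (29.8%) held a member. When the genes were ranked by edited reads over the 9 libraries and cut into bins of 20% each, the share rose from 16.9% in the lowest bin (median 84 reads) through 24.4%, 31.6% and 36.4% to 39.5% in the highest (median 529 reads). Of the markers outside clusters, 7 of 8 for neurons had enough edited reads to be tested, and none of 3 for blood had. For inhibitory neurons 3 of 6 were tested, and for oligodendrocytes 3 of 7. These counts are of edited reads, not corrected for gene length, and are not a measure of RNA level alone. Edited reads summed over all markers of a list were at least 735 in each library for neurons. These sums were at least 191 for astrocytes and 97 for oligodendrocytes. Striatal and excitatory markers had at least 175 and 144. Among the lower lists, inhibitory neurons had at least 26, precursors 26 and microglia 34. In whole sections, fewer cells of a type cannot be told apart from less RNA per cell.

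The gene lists are described by their counts, beside the 29.8% of all tested genes that held a member, and were not tested. They were not matched for edited reads, with which the share rose to 39.5% in the highest bin. RNA-binding proteins held 28 clusters in 15 of 39 genes, and 39.4% of those tested held one. Qk, the quaking protein that controls splicing in glia, had 5 clusters with 31 edited reads in the enzyme-only libraries, Celf2 had 5 with 19, the neuronal Elavl4 had 3 with 7, and Nova1 had 2 with 11. Cytoskeletal genes held 9 clusters in 8 of 35 genes (36.8% of those tested). Ion channels and pumps held 16 in 9 of 31 genes (32.1%), led by the bicarbonate transporter Slc4a4 with 4 clusters and 24 edited reads and the potassium channel Kcnq3 with 3 and 10. The ubiquitin system held 10 in 6 of 29 genes (31.6%), 4 of them in Ube3a, the ligase of Angelman syndrome.

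Of 32 presynaptic genes 27 were tested and 1, Erc1, held a member (3.70%). None of the 8 neuron markers, the 6 inhibitory markers or the 34 genes of oxidative phosphorylation held one, with 7 of the last tested. Postsynaptic genes held 5 clusters in 5 of 32 genes (16.7% of those tested), among them the glutamate receptor gene Gria3 with 10 edited reads, and protein kinases and phosphatases held 4 in 33 genes (10.7%). Calcium signalling genes held 6 clusters in 6 of 27 genes (20% of those tested), motor proteins 8 in 6 of 24 (22.7%), GTPase signalling 7 in 7 of 26 (30%) and vesicle transport 4 in 4 of 31 (15.4%). Glycolysis had 1, in Pfkp, chaperones 1, in Dnaja2, and translation factors 2, in Eif3a and Eif4ebp2. Of 12 nuclear long non-coding RNAs, 3 held members (33.3% of those tested): Kcnq1ot1 with 3, Snhg14 with 2 and Snhg11 with 1.

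By cell type, the striatal markers held 8 clusters in 4 of 7 genes, 4 of them in the dopamine receptor gene Drd1 with 10 edited reads and 2 in Pde10a, the phosphodiesterase of striatal neurons. Endothelial markers held 7, 4 of them in the VEGF receptor gene Flt1 and 3 in Slco1a4. Astrocyte markers held 4, 3 in the water channel gene Aqp4 and 1 in Gja1. The excitatory marker Slc17a6, the oligodendrocyte gene Mbp, the precursor gene Cspg4 and the microglial gene C1qa held 1 each, and the choroid plexus and blood markers none. These counts are not per length, and most lists are too short for a share to carry much.

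Whether the member genes also differed away from the clusters was asked with edited reads summed per gene outside every confident cluster, with 15 nt added to each side. All 9 libraries entered 1 edgeR quasi-likelihood fit across genes, and a gene was called at a Benjamini-Hochberg adjusted p under 0.05. Both comparisons share the enzyme-only libraries.

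Against RBFOX2-INSCRIBE, 9 member genes were called out of 1856 tested (0.485%), beside 29 of all 6237 genes (0.465%). All 29, the 9 member genes among them, were lower in enzyme-only, so this direction was not particular to the members. The members' share was thus near that of all genes. At an unadjusted p under 0.05 there were 184 member genes and 647 of all genes. The median log2 fold change was 0.01 in the member genes and 0.01 in all genes tested. The 6 largest falls were in Arhgap10, a GTPase activator, the calcium channel subunit genes Cacnb2 and Cacna2d3, the diacylglycerol kinase gene Dgkb, Nebl, which encodes an actin-binding protein, and Pde10a. Cacna2d3 had 152, 194 and 195 edited reads in enzyme-only, 315, 351 and 355 in RBFOX2-INSCRIBE and 180, 115 and 134 in buffer-only. It fell by 0.75 on the log2 scale (SE 0.12, adjusted p = 0.000195 by edgeR), and the enzyme-only and RBFOX2-INSCRIBE groups did not overlap. With a mean cover offset it fell by 0.44 and was no longer called (adjusted p = 0.352 by edgeR). Arhgap10 had 14, 32 and 29 in enzyme-only against 68, 57 and 57 in RBFOX2-INSCRIBE and fell by 1.105 (SE 0.24, adjusted p = 0.00754 by edgeR). With exonic sites alone edgeR called 0 member genes, with 100 of 1619 at an unadjusted p under 0.05. With a mean cover offset 5 were called, 3 of them among the 9, and without enzyme-only replicate 1 there were 3.

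Against buffer-only, 7 member genes were called higher and 2 lower in enzyme-only, together 0.485% of the 1856 tested, beside 13 (0.208%) and 10 (0.16%) of all 6237 genes, 0.369% in both directions together. At an unadjusted p under 0.05 there were 207 member genes and 579 of all genes. The median log2 fold change was 0.03 in the member genes and -0.01 in all genes tested. The genes called higher were Rlim, an X-linked ubiquitin ligase, Ppp1r2, an inhibitor of protein phosphatase 1, the GTPase activator gene Arhgap5, the aminopeptidase gene Lnpep, the Wnt receptor gene Fzd3, Purg and Qk, the last named for its place in the RNA-binding list. Rlim had 30, 39 and 33 edited reads in enzyme-only, 17, 22 and 29 in RBFOX2-INSCRIBE and 8, 12 and 5 in buffer-only, a log2 fold change of 1.59 (SE 0.35, adjusted p = 0.0256 by edgeR). Qk had 153, 141 and 133 in enzyme-only, 149, 132 and 153 in RBFOX2-INSCRIBE and 77, 61 and 55 in buffer-only, a log2 fold change of 0.73 (SE 0.16, adjusted p = 0.0226 by edgeR). In both genes all 3 enzyme-only libraries lay above all 3 buffer-only libraries.

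The genes called lower were Adgrb3, an adhesion receptor of synapses, at -0.44 (SE 0.10, adjusted p = 0.0376 by edgeR), and Ccdc30, named after its values were seen, with 3, 7 and 11 edited reads against 24, 16 and 14. These calls were fragile: leaving out 1 enzyme-only or buffer-only library left 0 to 5 member genes called, with 0 by edgeR without buffer-only replicate 3 (189 at an unadjusted p under 0.05) and 1 without enzyme-only replicate 1, enzyme-only replicate 2 or buffer-only replicate 1. Without buffer-only replicate 2 there were 2, and without enzyme-only replicate 3 there were 5.

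Of the genes in the 12 clusters with the most edited reads, 10 were tested outside the clusters, and 0 were called in either comparison by edgeR or by DESeq2. At an unadjusted p under 0.05 there were 2 by each tool against RBFOX2-INSCRIBE, and 2 by edgeR and 1 by DESeq2 against buffer-only. Surf4, with 10, 12 and 16 edited reads there against 5, 5 and 8 in RBFOX2-INSCRIBE, had a log2 fold change of 1.23 (SE 0.50, adjusted p = 0.330 by edgeR). Gja1, with 9, 14 and 15 against 3, 2 and 5 in buffer-only, had 1.48 (SE 0.55, adjusted p = 0.344 by edgeR). The groups did not overlap in either case, but neither gene passed the test. The other gene of each comparison below that unadjusted p by edgeR was lower in enzyme-only. Srgap3 had 104, 108 and 87 edited reads against 159, 158 and 139 in RBFOX2-INSCRIBE, at -0.44 (SE 0.14, adjusted p = 0.182 by edgeR). Snhg14 was at -0.29 against buffer-only (SE 0.12, adjusted p = 0.404 by edgeR), where the groups overlapped.

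**Figure D5:**
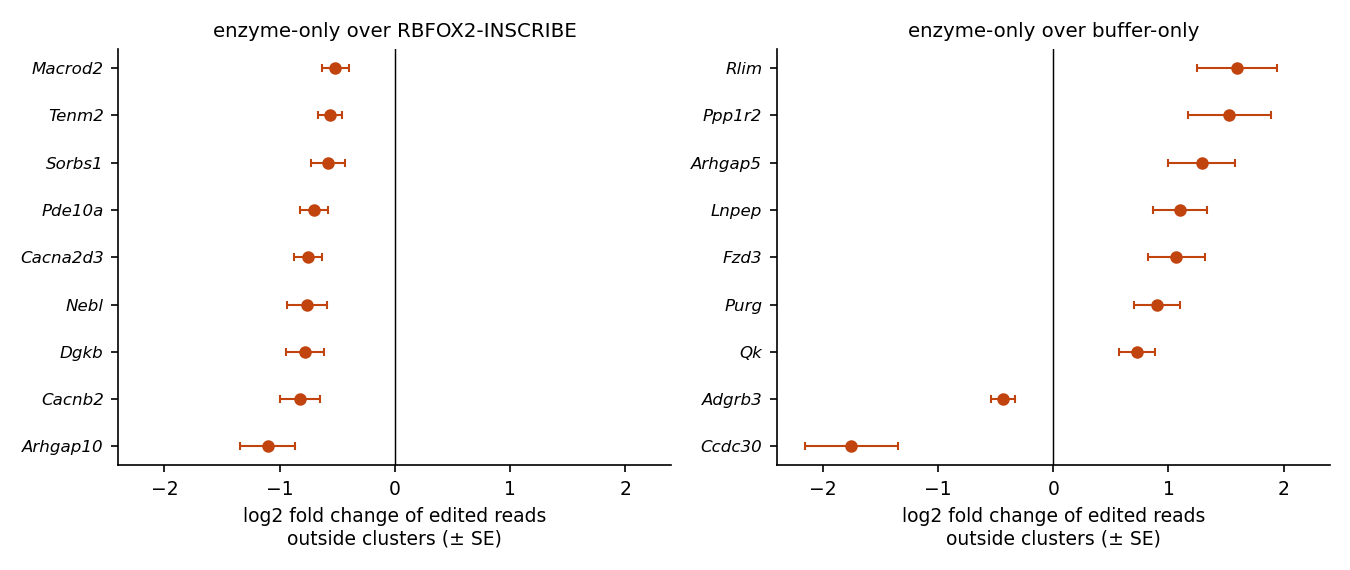
The log2 fold change (x axis) of edited reads outside clusters for the member genes called in each comparison (y axis). Bars are the SE, worked out from the fold change and the F statistic of the edgeR test. The 9 genes against RBFOX2-INSCRIBE (left) are all lower in enzyme-only, as are all 29 genes called in that comparison. Of the 9 against buffer-only (right) 7 are higher and 2 lower.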

How the data were processed

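The authors trimmed reads with cutadapt, removed reads from repeats, mapped the rest with STAR (versions 2.4.0 and 2.5.2 stand in the processing notes) to mm10, and found C-to-U sites with SAILOR and clusters with FLARE. No molecular identifiers were used, and the read total of each library was not used here. The deposited site files give, per site, a score and the number of edited and covering reads, and the deposited cluster tables give counts of edited bases, the edited fraction and the depth signal, which the authors computed over each merged window. Sites were kept at a score above 0.5 and a fraction below 0.8, as in the study. Filtered edited reads per library numbered 267277 to 339567 with enzyme and 193252 to 262593 without. By the study's methods, confident lists keep windows found in the 3 replicates, while 2549 of the 3125 members overlapped clusters of all 3 enzyme-only libraries, and the cleaned lists lack buffer-only clusters. The deposited lists and labels were used as given.

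Edited-read counts per gene outside clusters were tested with edgeR 4.0.16 in R 4.3.3 (TMM, filterByExpr, quasi-likelihood, Benjamini-Hochberg), a fit checked on simulated data. The SE given with an edgeR log2 fold change is its absolute value divided by the square root of the test's F statistic. DESeq2 1.42.0 was an alternative. Cover outside clusters was compared by exact permutation tests. The members and gene lists were chosen with earlier results of these data known. Named members were the 12 with the most edited reads (1 per gene, none on chromosome 18), the 6 genes with the most clusters, the 4 seen in enzyme-only libraries alone, the 4 nearest each side of the rule, the leading genes of each list, and, among called member genes averaging 20 edited reads or more, the 6 largest in each direction. The human cell line libraries were not used here.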

Additional observations from a re-analysis of the deposited data

How the results depend on the processing

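Counting every listed site moved the enzyme-only to RBFOX2-INSCRIBE ratio of edited reads in the members from 5.23 to 3.66, and the ratios of cover per listed site in the members to 0.580 against RBFOX2-INSCRIBE and 0.539 against buffer-only. It turned the ratios of cover outside clusters to 0.995 (exact permutation p = 0.9) and 0.940 (p = 0.7). Widening the window by 50 nt moved the UGCAUG share to 5.12%. The membership rule's alternatives gave 3102 to 3152 members.

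Against RBFOX2-INSCRIBE, the 29 genes called became 113 with every listed site, 44 with the member windows alone left out, 59 with no site left out, 9 with exonic sites alone and 14 with a cover offset, and 11 to 41 when 1 library of the 2 groups was left out. The 9 member genes became 32 with every listed site, 0 with exonic sites alone, 5 with the offset, and 3 to 13 with 1 library of the 2 groups left out. Cacnb2 turned to a log2 fold change of 0.022 with exonic sites alone.

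Against buffer-only, the 23 genes called became 7 by DESeq2's Wald test, 102 with every listed site, 1 at sites with at least 20 covering reads, 42 with no site left out, 1 with exonic sites alone, 11 with a cover offset, and 0 to 13 with 1 library of the 2 groups left out. The 9 member genes became 3, 23, 1, 13, 1 and 2 under the same alternatives in turn, and 0 to 5 with 1 library of the 2 groups left out. The cause of these changes was not tested.

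The replicate numbers did not pair the sections: same-numbered libraries' deviations correlated at -0.02 to 0.05. With the replicate block, 34 and 28 genes were called, 10 and 9 of them member genes, the ratios of edited reads were 5.04 and 5.29, and the exact permutation p of the cover outside clusters was 0.25 in both comparisons, the smallest that 3 pairs can give.

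Most members rest on 1 to 3 edited reads, and cover is known only at listed sites, which limits what a single cluster can show.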
